A study of Mus musculus with 13 samples.

Results

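The 4 compounds that remain when the ROCK inhibitor GSK429286A is taken out of a 5-compound cocktail were compared with the solvent, DMSO, across all genes. Damaged hepatocytes (dHeps) were cultured with CID755673 (an inhibitor of protein kinase D, 50 µM), ETC-1002 (an activator of AMP-activated protein kinase, AMPK, 5 µM), forskolin (an activator of adenylate cyclase, 2 µM) and Salidroside (a phenylpropanoid glycoside, 5 µM), a treatment called 5C-G. The members were the 2 RNA-seq libraries of 5C-G and the 2 of DMSO, chosen by their labels, which makes 4 of the 13 libraries of the series. The 2 libraries of the full cocktail with 2 µM GSK429286A, called 5C, were used to show where 5C-G differed from it. In each group, libraries are called A and B as names only, and A of one group is not paired with A of another.

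The dHeps came from wild-type mice on the C57BL/6 background that had received carbon tetrachloride (CCl4) for 12 weeks, with 2 injections per week from 8 to 10 weeks of age. The livers were perfused with pronase and collagenase, and the cells were kept for 16 days in a serum-free hepatocyte medium with the compounds or DMSO. DMSO and 5C-G cells therefore share the chronic injury, the isolation and the culture, and no cells of a healthy liver are among these 4 libraries. The preparation is not free of other liver cells, as the marker genes given further on show. In bulk RNA, fewer cells of a type and less RNA per cell cannot be told apart.

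Hepatocytes carry out drug oxidation by cytochrome P450 enzymes, make most plasma proteins and detoxify ammonia, under a network of transcription factors led by HNF4A. They are known to lose these functions when they are placed in culture or injured repeatedly. The kinases ROCK1 and ROCK2 phosphorylate the myosin light chain and promote actin stress fibres, and actin assembly releases MRTF cofactors that switch on serum response factor (SRF) targets such as smooth muscle actin. Forskolin raises cyclic AMP, AMPK senses low energy and restrains lipid synthesis, and protein kinase D acts in vesicle transport and stress signalling.

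The 4 libraries held 31129213 to 36541583 counts assigned to genes, within the range of 30195867 to 45491932 over the series, and mitochondrially encoded genes took 0.903 to 0.991% of them. The defining hepatocyte genes Alb, Ttr, Apoa1, Hnf4a, Foxa3 and Cps1 were detected in each of the 4 libraries. The 5C-G libraries differed from each other more than the DMSO libraries did. The SD of the log2 difference between libraries A and B over genes was 0.952 in 5C-G and 0.724 in DMSO. Fold changes of 5C-G against DMSO also moved with the GC content and the length of the transcripts. Across 19787 genes, which are not independent replicates, Spearman's rank correlation was 0.267 with GC content and -0.314 with length. The difference between the 5C-G libraries moved the same way (0.263 and -0.232), and that between the DMSO libraries hardly did (-0.024 and -0.074). For this reason most counts of 5C-G against DMSO, and some against 5C, are given also from a fit with an offset. The offset is a correction of each library for smooth trends in GC content and length. It brought the correlations of 5C-G against DMSO to 0.022 and 0.058. A gene named below as risen or fallen kept its call with the offset, except where the text says that it lost it. Whether these trends arose in library preparation was not tested.

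Across 19884 genes tested, 5C-G differed from DMSO at 1160, or 5.83%, with an adjusted p under 0.05 and at least a 2-fold change in edgeR's quasi-likelihood test. Of these, 619 (3.11%) rose and 541 (2.72%) fell. These shares are the background for each list's count of 5C-G against DMSO below, and counts near them are given as descriptions only. A gene is called higher or lower, and is said to have risen or fallen, only where it passed both limits. The median log2 fold change over all genes tested was 0.00. With the offset the calls numbered 653 (3.28%), 293 higher (1.47%) and 360 lower (1.81%). Of the 1160 calls, 468 were kept in the same direction with the offset (190 higher and 278 lower) and 692 were lost. Single libraries also set the count, which was 217 without DMSO A, 374 without DMSO B, 2722 without 5C-G A and 260 without 5C-G B. Where a list's count without 1 library is given below as 4 numbers, these leave out DMSO A, DMSO B, 5C-G A and 5C-G B, in this order. Both 5C-G values lay on one side of both DMSO values at 1159 of the 1160 called genes and at 60.6% of all genes tested.

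**Figure D1:**
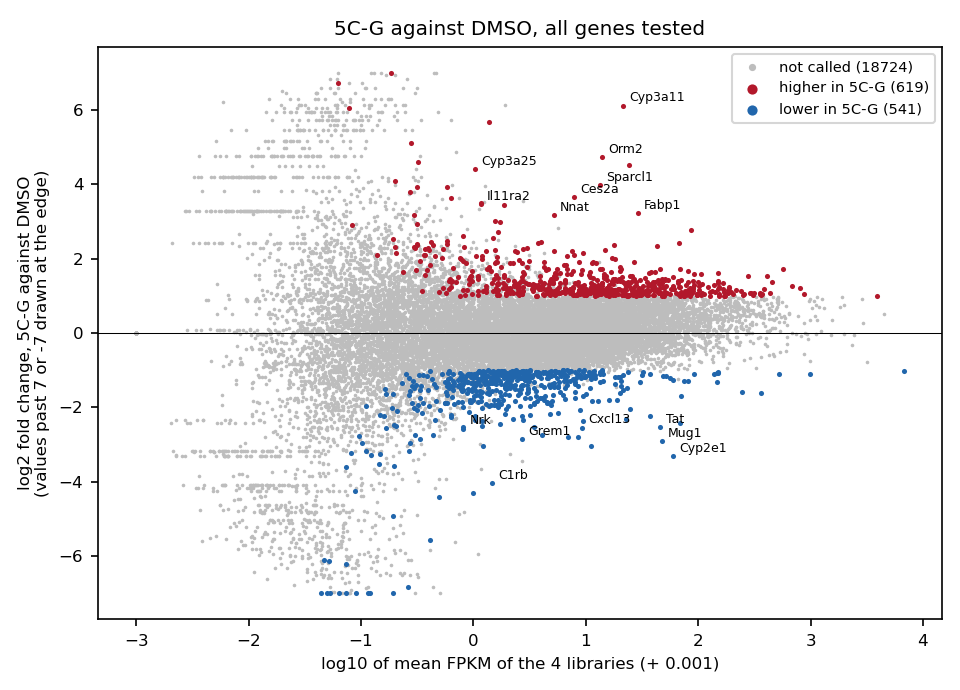
Each point is 1 of 19884 genes, with the log10 of its mean FPKM over the 4 libraries on the x axis and its log2 fold change of 5C-G against DMSO on the y axis. The 619 higher (red) and 541 lower (blue) genes span all but the lowest levels, and the names mark leading genes such as Cyp3a11 (6.12) and Cyp2e1 (-3.31).

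The trend with transcript length was seen in calls as well as in medians. The median log2 fold change was 0.43 in quartile 1, the genes with the shortest transcripts, and -0.36 in quartile 4, the longest. In those quartiles 5.95% and 0.664% of genes were called higher, and 0.563% and 6.62% were called lower. By GC content the medians ran from -0.27 in the lowest quartile to 0.33 in the highest.

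**Figure D2:**
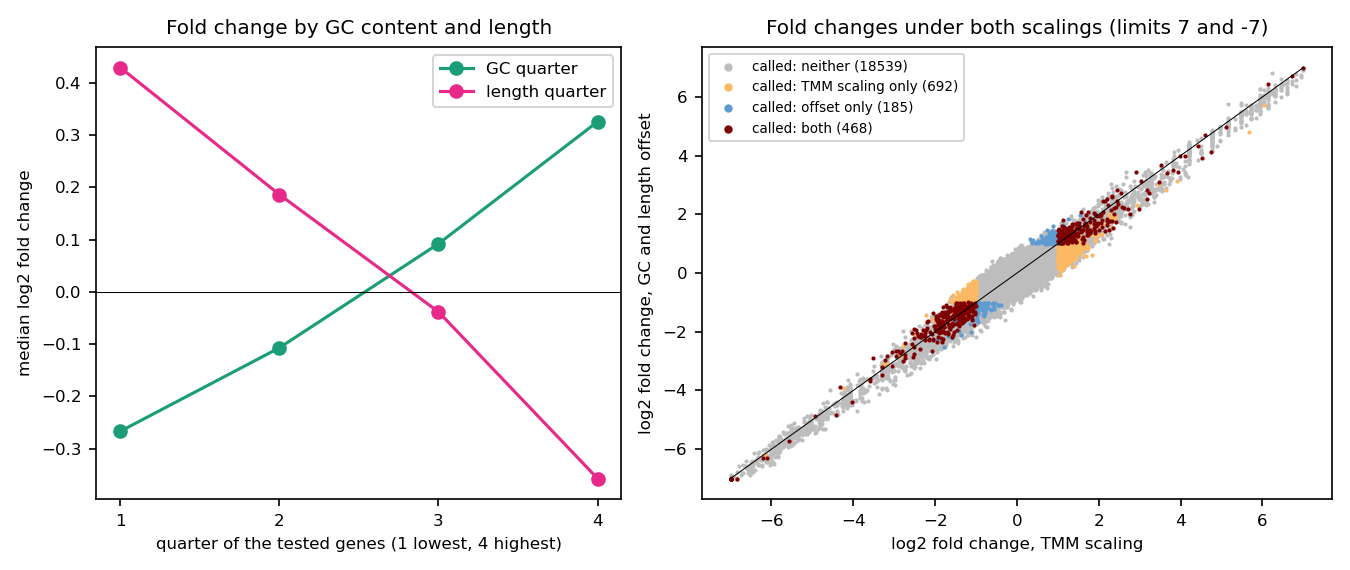
On the left, the median log2 fold change of 5C-G against DMSO is drawn for quartiles of the tested genes by GC content (green) and by transcript length (pink). On the right, each gene's log2 fold change with the GC and length offset is drawn against that with TMM scaling alone, and 468 genes are called under both, 692 under TMM scaling only and 185 under the offset only.

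The 12 leading genes in each direction were those with the largest change among called genes with a mean of at least 1 FPKM in either group. Both libraries of the higher group had to lie above both of the lower group, so separate groups in these genes follow from the choice. Gene models without a name were left out. Cyp3a11 led the genes that rose. It encodes the main inducible P450 3A enzyme of mouse liver and lies on chr5:145791236-145816867 on the minus strand (GRCm39). Cyp3a11 stood at 0.708 and 0.542 FPKM in DMSO and at 42.4 and 41.5 FPKM in 5C-G. The 5C-G values are far above both DMSO values and nearly equal to each other, and the log2 fold change was 6.12 ± 0.32 (SE, adjusted p = 8.2e-09, edgeR). A relative from the same gene cluster, Cyp3a25, went from 0.0525 and 0.139 FPKM to 2.60 and 1.37 FPKM (log2 fold change 4.42 ± 0.71). Gstm3, a glutathione S-transferase, went from 2.77 and 1.39 FPKM to 46.6 and 45.4 FPKM (4.51 ± 0.36), and Ces2a, an intestinal and hepatic carboxylesterase, from 1.22 and 1.18 FPKM to 15.3 and 13.8 FPKM (3.66 ± 0.19). All 4 of these drug-metabolizing genes kept their call with the offset. Cyp3a, Gstm and Ces genes have near-identical relatives between which reads can be split, so their exact values are uncertain.

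The acute phase gene Orm2, which encodes an orosomucoid of the plasma, rose from 1.38 and 0.745 FPKM to 16.9 and 37.0 FPKM (4.75 ± 0.46, adjusted p = 1.3e-05). Its 5C-G values differ from each other. Fabp1, the fatty acid carrier of the hepatocyte cytosol, rose from 5.63 and 5.92 FPKM to 52.6 and 51.7 FPKM (3.23 ± 0.30, adjusted p = 9.1e-06). Sparcl1, a secreted matricellular protein related to SPARC, rose from 1.42 and 1.82 FPKM to 29.3 and 20.5 FPKM (3.99 ± 0.23, adjusted p = 2.9e-08). Orm2, Fabp1 and Sparcl1 kept their calls with the offset.

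The other leading genes that rose are less tied to the liver. Ecel1, a membrane endopeptidase known from neurons, had 0.281 and 0.367 FPKM in DMSO and 3.28 and 3.52 FPKM in 5C-G (3.46 ± 0.42). Nnat, an imprinted proteolipid, had 1.42 and 0.737 against 8.55 and 10.1 FPKM (3.17 ± 0.36), and the adhesion molecule gene Cadm3 had 0.339 and 0.372 against 2.34 and 3.16 FPKM (3.03 ± 0.26). Cox4i2, an isoform of a cytochrome c oxidase subunit, had 0.277 and 0.529 against 2.72 and 3.37 FPKM (2.99 ± 0.47). In each of these 4 genes the call was kept with the offset. Il11ra2, a copy of the interleukin 11 receptor gene, rested on 1 library. It had 0.182 and 0.197 FPKM in DMSO but 3.79 FPKM in 5C-G A and 0.462 FPKM in 5C-G B (3.47 ± 0.96), and its call was lost with the offset (adjusted p = 0.072).

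Cyp2e1 was the most abundant of the leading genes that fell. It encodes the P450 that oxidizes ethanol and activates CCl4, and lies on chr7:140343652-140355167 on the plus strand (GRCm39). Cyp2e1 went from 108 and 112 FPKM in DMSO to 12.2 and 9.26 FPKM in 5C-G (-3.31 ± 0.32, adjusted p = 1.6e-05). Tat, the tyrosine aminotransferase that marks mature hepatocytes, went from 81.3 and 75.4 FPKM to 15.8 and 10.7 FPKM (-2.52 ± 0.20, adjusted p = 1.7e-06). The calls of Cyp2e1 and Tat were kept with the offset. Mug1 and Mug2, plasma protease inhibitors that are close copies and hard to count apart, fell from 84.4 and 83.3 to 11.96 and 9.57 FPKM (-2.91 ± 0.24) and from 12.6 and 12.1 to 1.53 and 1.83 FPKM (-2.81 ± 0.26).

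Several leading genes that fell belong to stromal or immune cells. Fmod, a small proteoglycan that binds collagen, fell from 16.3 and 13.4 FPKM to 2.49 and 1.66 FPKM (-2.79 ± 0.26), and the bone morphogenetic protein antagonist Grem1 from 5.77 and 3.70 FPKM to 0.959 and 0.330 FPKM (-2.86 ± 0.43). Cxcl13, a chemokine that attracts B cells, fell from 16.1 and 15.8 FPKM to 1.95 and 3.21 FPKM (-2.54 ± 0.34). Nrk, a kinase gene, had 1.47 and 1.32 FPKM in DMSO and 0.219 and 0.229 FPKM in 5C-G (-2.57 ± 0.32). These 4 calls were kept with the offset. C1rb, a copy of a complement protease gene, rested on DMSO A, with 5.28 FPKM there, 0.291 FPKM in DMSO B, and 0.128 and 0.192 FPKM in 5C-G. Among all the leading genes, Il11ra2 alone lost its call with the offset.

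The P450 enzymes as a list went in both directions. Of 23 tested, 5 rose and 4 fell, and the median log2 fold change was -0.03, beside 0.00 over all genes. Cyp2c29, a drug and retinoid oxidase, rose from 1.67 and 1.14 FPKM to 4.44 and 4.82 FPKM (1.78 ± 0.27). Cyp1a2, the caffeine-oxidizing enzyme of the pericentral lobule, rose from 0.679 and 0.637 to 2.15 and 2.00 FPKM (1.71 ± 0.33). Cyp4a14, a fatty acid hydroxylase and target of PPAR alpha, rose from 0.378 and 0.222 to 1.53 and 0.894 FPKM (2.03 ± 0.38). Besides Cyp2e1, the genes that fell were Cyp2b10, a target of the receptor CAR, from 9.90 and 8.70 to 3.58 and 3.64 FPKM (-1.30 ± 0.22), and Cyp1b1, a P450 of mesenchymal cells, from 12.1 and 12.8 to 4.24 and 2.93 FPKM (-1.75 ± 0.23). Cyp2c54 had 6 and 11 counts in DMSO and none in either 5C-G library, and was at least 2.83-fold lower, taken at the floor of 3 counts per library. All 9 calls were kept with the offset, with 1 more gene lower, and 3 genes were higher without DMSO A or without DMSO B. The summed level of the 23 genes was 269 and 278 FPKM in DMSO and 191 and 215 FPKM in 5C-G.

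The full cocktail gave another picture for the same enzymes. In 5C against DMSO, where 4.55% of all genes were called (1.66% higher and 2.89% lower), 12 of the 23 were higher and 1 was lower, with a median of 2.14. In the direct comparison of 5C-G with 5C, where 13.1% of all genes were called (7.47% higher and 5.64% lower), none of the 23 was higher and 15 were lower, with a median of -1.98. Both counts held with the offset (0 and 15), where 4.56% of genes were higher and 4.83% lower. Cyp2c29 stood at 169.9 and 165 FPKM in 5C, and Cyp3a11 at 173 and 191 FPKM. The 5C-G level of Cyp3a11 was therefore far above DMSO and below 5C, with a log2 fold change of -1.98 against 5C (adjusted p = 4.9e-05). Cyp2b10, at 88.3 and 78.0 FPKM in 5C, was above DMSO in 5C and below DMSO in 5C-G.

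Conjugating enzymes and related genes were mixed as well, with 5 of 29 higher, 4 lower and a median of 0.07. Ces1c and Ces1d, carboxylesterases with close copies, rose from 2.13 and 1.53 to 7.60 and 5.76 FPKM (1.91 ± 0.30) and from 1.82 and 1.07 to 4.41 and 3.95 FPKM (1.58 ± 0.24). Fmo5 fell from 30.8 and 28.9 to 8.77 and 7.72 FPKM (-1.80 ± 0.21). Ugt1a1, which conjugates bilirubin, fell from 3.06 and 2.68 to 1.20 and 1.24 FPKM (-1.17 ± 0.30), and Ugt3a2 from 1.08 and 1.42 to 0.321 and 0.335 FPKM (-1.86 ± 0.51). With the offset 3 were higher and 3 lower, since Gsta2, Ugt2b36 and Fmo1 lost their calls. Without 1 library 3, 3, 5 and 4 were higher and 1, 1, 2 and 1 lower. Against 5C, none of the 29 was higher and 13 were lower.

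**Figure D3:**
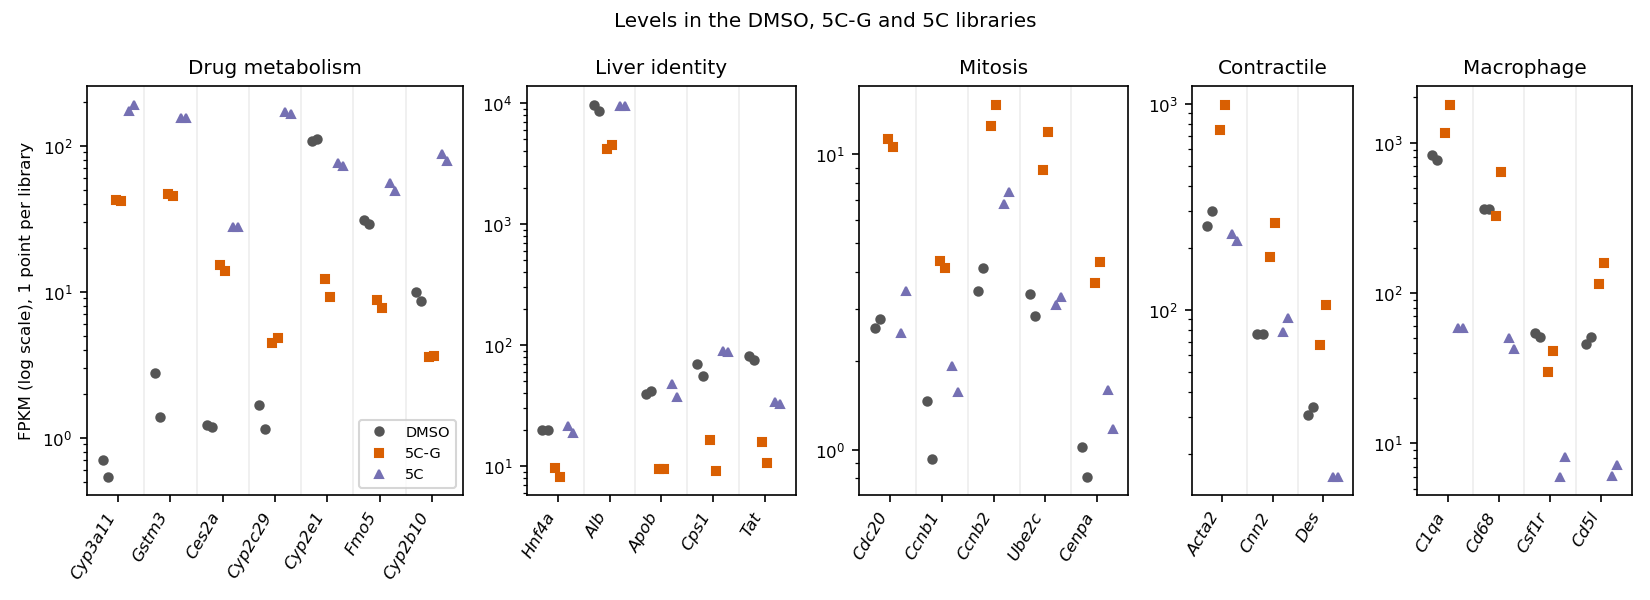
FPKM on a log scale in each DMSO (grey circles), 5C-G (orange squares) and 5C (purple triangles) library, 1 point per library, for genes of drug metabolism, liver identity, mitosis, contraction and macrophages. Cyp3a11 stood at 42.4 and 41.5 FPKM in 5C-G, between DMSO and 5C, while Hnf4a, Alb, Apob, Cps1 and Tat were lowest in 5C-G.

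Hepatocyte transcription factors fell or did not pass the test. Of 21 tested, 8 fell and none rose, with a median of -0.60, and 19 of the 21 had a negative log2 fold change. Hnf4a, the central factor of the network (chr2:163348728-163414830, plus strand, GRCm39), had 19.8 FPKM in both DMSO libraries and 9.62 and 8.16 FPKM in 5C-G (-1.10 ± 0.18, adjusted p = 0.0014). Prox1, a homeobox factor of liver development, fell from 2.80 and 2.50 to 0.800 and 0.600 FPKM (-1.87 ± 0.26), and Nr5a2, a regulator of bile acid genes, from 2.22 and 2.72 to 0.954 and 0.979 FPKM (-1.29 ± 0.23). Ppara, the nuclear receptor of fatty acid oxidation, fell from 2.08 FPKM in both DMSO libraries to 0.908 and 0.442 FPKM (-1.59 ± 0.38). The groups are apart in each of these 4 genes, although Ppara also differed about 2-fold between the 5C-G libraries.

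Low-level factors of the same list fell too. The pioneer factor Foxa1 had 1.98 and 2.20 FPKM in DMSO and 1.13 and 0.494 FPKM in 5C-G (-1.34 ± 0.38). Onecut1, also known as HNF6, had 0.252 and 0.195 FPKM in DMSO and 0.0151 and 0.0266 FPKM in 5C-G (-3.29 ± 0.79), and Onecut2 had 1.47 and 1.58 against 0.745 and 0.357 FPKM (-1.44 ± 0.24). With the offset 9 of 21 were lower, with Onecut2 no longer called and Nr1i2 among those added. Leaving out 1 library gave 3 to 10 lower, with 4 without DMSO A, 3 without DMSO B, 10 without 5C-G A and 4 without 5C-G B. Cebpa (37.6 and 39.2 against 30.8 and 27.9 FPKM) and Foxa3 (7.58 and 6.24 against 4.46 and 6.53 FPKM) did not pass the test. In 5C against DMSO 1 of the 21 was lower and none higher, and 5C-G against 5C had 1 higher and 11 lower (0 and 11 with the offset). Macrophage markers summed to 6221 and 6322 FPKM in DMSO and to 6271 and 8796 FPKM in 5C-G, and cholangiocyte markers to 2702 and 3060 FPKM and to 2553 and 2047 FPKM. The part of the cell mix in the lower hepatocyte genes was not tested.

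Secreted plasma proteins followed with 7 of 38 lower, 1 higher and a median of -0.54. Alb, serum albumin (chr5:90608647-90624696, plus strand, GRCm39), stood at 9711 and 8604 FPKM in DMSO and at 4136 and 4482 FPKM in 5C-G (-1.02 ± 0.19, adjusted p = 0.0042). It took 2.28% and 2.02% of all counts in DMSO and 0.970% and 1.05% in 5C-G. The change of Alb lies at the 2-fold limit, and without DMSO A or without 5C-G A it fell short of it (-0.97 and -0.88). Apob, the structural protein of very low density lipoproteins, fell from 39.0 and 41.9 to 9.41 and 9.39 FPKM (-2.04 ± 0.21, adjusted p = 2.0e-05). Serpina3k fell from 371 and 367 to 114 and 120 FPKM (-1.59 ± 0.17), the coagulation factor gene F9 from 9.60 and 10.3 to 3.42 and 3.70 FPKM (-1.41 ± 0.26), and plasminogen, Plg, from 45.8 and 42.9 to 21.0 and 17.8 FPKM (-1.14 ± 0.17). Apoa1, the protein of high density lipoprotein, had 1415 and 1273 FPKM in DMSO and 2009 and 2952 FPKM in 5C-G and was not called (0.96 ± 0.22). With the offset 10 plasma protein genes were lower and none higher, Ttr among those added.

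Acute phase genes rose and fell within 1 list of 19, with 4 higher, 2 lower and a median of 0.05. Besides Orm2, Orm1 rose from 22.1 and 22.6 to 80.6 and 145 FPKM (2.42 ± 0.26, adjusted p = 3.7e-05) and Saa1, serum amyloid A, from 0.199 and 0.285 to 0.953 and 1.82 FPKM (2.61 ± 0.58). Crp, C-reactive protein, fell from 15.2 and 17.4 to 6.31 and 4.87 FPKM (-1.49 ± 0.27), and Hamp, the iron hormone hepcidin, from 40.5 and 47.2 to 19.6 and 21.1 FPKM (-1.04 ± 0.26). The values of each of these genes do not overlap between groups. Orm genes are near-identical copies and their split is uncertain, and Orm3 was the 1 call of this list lost with the offset, while the median became -0.34. Without 1 library 2, 2, 5 and 2 were higher and 1, 1, 2 and 1 lower. Haptoglobin, Hp, had 813 and 823 FPKM in DMSO and 864 and 1011 FPKM in 5C-G, with an adjusted p of 0.30.

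Among enzymes of nitrogen and glucose metabolism, more genes fell than rose. Of 29 genes of the urea cycle and amino acid breakdown, 6 fell and 1 rose, with a median of -0.60. Cps1, the entry enzyme of the urea cycle, fell from 69.3 and 55.3 to 16.5 and 9.08 FPKM (-2.25 ± 0.32, adjusted p = 0.00051). Tdo2, which opens the tryptophan ring, fell from 14.6 and 17.3 to 3.70 and 2.24 FPKM (-2.38 ± 0.25), and Hpd, of tyrosine breakdown, from 36.0 and 28.3 to 10.1 and 10.9 FPKM (-1.54 ± 0.28). Mat1a, which makes S-adenosylmethionine in adult liver, fell from 6.60 and 6.53 to 2.38 and 1.33 FPKM (-1.79 ± 0.26). With the offset 7 were lower and 1 higher.

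Of 16 genes of gluconeogenesis, glycogen and glucose handling, 5 fell and none rose (6 and 0 with the offset), with a median of -0.54. Slc2a2, the hepatocyte glucose transporter, fell from 12.5 and 11.8 to 4.84 and 3.08 FPKM (-1.58 ± 0.23). Gys2, liver glycogen synthase, fell from 5.97 and 4.93 to 1.95 and 0.886 FPKM (-1.91 ± 0.33), and Ppargc1a, a coactivator induced by cyclic AMP, from 0.593 and 0.433 to 0.207 and 0.0581 FPKM (-1.94 ± 0.51). Pck1, the rate-limiting enzyme of gluconeogenesis and a classical target of cyclic AMP, had 1.63 and 1.57 against 1.83 and 1.16 FPKM (adjusted p = 0.93). Leaving out DMSO A or DMSO B left 3 lower genes in this list, and leaving out 5C-G B left 2. In 5C against DMSO none of the 16 was called, and 5C-G against 5C had 7 lower (11 with the offset).

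The genes of the compounds' own targets were also read. The ROCK inhibitor was absent from 5C-G, and Rock1 had 4.83 and 4.71 FPKM in DMSO and 3.61 and 1.55 FPKM in 5C-G, which did not pass the 2-fold limit (-0.86 ± 0.25, adjusted p = 0.032) and was near 0 with the offset. Rock2 had 17.8 and 18.2 against 16.3 and 8.32 FPKM (adjusted p = 0.14). In both genes 5C-G A lay near DMSO and 5C-G B well below it.

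Protein kinase D and AMPK subunits gave 1 call among 16 genes, and 0, 0, 2 and 0 without 1 library. Prkaa2, a catalytic subunit of AMPK, fell from 2.21 and 2.07 to 1.18 and 0.550 FPKM (-1.28 ± 0.33), and lost its call with the offset (-0.83). Prkd1, Prkd2 and Prkd3, the targets of CID755673, were not called, with adjusted p values of 0.74, 0.57 and 0.012, the last with a change under 2-fold. Acly, the ATP citrate lyase that ETC-1002 inhibits after activation, had 35.0 and 32.3 against 29.2 and 17.8 FPKM (adjusted p = 0.15).

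The cyclic AMP cascade had 1 of 30 genes higher and 3 lower, but with the offset 2 were higher and 1 lower, since Adcy7 and Rapgef4 lost their calls and Pde1a gained one. Without 1 library 0, 0, 3 and 0 were higher and 0, 1, 4 and 0 lower. Immediate targets of cyclic AMP and CREB had none of 24 higher and 2 lower in edgeR, 1 and 2 with the offset, 2 and 2 in DESeq2 and 0 and 1 in limma. Without 1 library none was higher in edgeR and 2, 1, 4 and 1 were lower. Among adenylate cyclases, the enzymes that forskolin activates, Adcy2 rose from 0.876 and 0.747 to 1.86 and 1.71 FPKM (1.19 ± 0.35), and Adcy9, the isoform known to respond weakly to forskolin, fell from 2.72 and 1.72 to 0.801 and 0.316 FPKM (-1.97 ± 0.46). Ppp1r3c, a glycogen-targeting subunit of protein phosphatase, fell from 10.6 and 8.15 to 2.66 and 1.46 FPKM (-2.15 ± 0.28). Crem, which cyclic AMP induces through CREB, had 2.79 and 2.94 against 3.43 and 3.54 FPKM (adjusted p = 0.29), and Nr4a1 had 3.34 and 3.46 against 2.74 and 2.22 FPKM (adjusted p = 0.54).

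Part of the genes of mitosis and cytokinesis rose. Of 28 tested, 9 rose and none fell, beside 3.11% higher over all genes, and all 28 had a positive log2 fold change, with a median of 0.72. Cdc20, the activator of the anaphase-promoting complex (chr4:118290098-118294610, minus strand, GRCm39), went from 2.59 and 2.76 FPKM in DMSO to 11.2 and 10.6 FPKM in 5C-G (2.09 ± 0.27, adjusted p = 0.00026). Cenpa, the histone variant of centromeres, went from 1.02 and 0.810 to 3.67 and 4.32 FPKM (2.19 ± 0.36). The mitotic cyclins Ccnb1 and Ccnb2 went from 1.46 and 0.928 to 4.34 and 4.13 FPKM (1.88 ± 0.29) and from 3.45 and 4.13 to 12.5 and 14.7 FPKM (1.91 ± 0.24). Both 5C-G libraries lie well above both DMSO libraries in each of the 4 genes.

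The other mitotic genes that rose include Ube2c, the ubiquitin-conjugating partner of Cdc20, from 3.35 and 2.84 to 8.81 and 11.9 FPKM (1.82 ± 0.31). Birc5, or survivin, rose from 0.996 and 1.01 to 2.77 and 2.69 FPKM (1.50 ± 0.34), and the spindle assembly gene Tpx2 from 2.23 and 2.01 to 4.98 and 5.05 FPKM (1.31 ± 0.24). The kinesin gene Kif20a (1.31 ± 0.31) and the kinetochore gene Nuf2 (1.16 ± 0.28) complete the 9. With the offset all 9 calls held and 5 were added, Cdk1, Cenpe, Cenpf, Mki67 and Top2a, which makes 14 of 28. Cdk1 had 3.99 and 4.53 FPKM in DMSO and 8.01 and 7.16 FPKM in 5C-G (0.89 ± 0.21), and Mki67, the gene of the Ki-67 antigen, had 1.28 and 1.41 against 1.89 and 1.96 FPKM (0.58 ± 0.23, and 1.08 with the offset). The summed level of the 28 genes was 44.9 and 43.5 FPKM in DMSO, 97.1 and 95.5 FPKM in 5C-G and 49.2 and 46.7 FPKM in 5C.

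The mitotic list also stood apart from 5C. In 5C against DMSO none of the 28 was called and the median was -0.07, while 5C-G against 5C had 11 higher and none lower (17 and 0 with the offset), with a median of 0.87. Leaving out 1 library gave 5 higher without DMSO A, 5 without DMSO B, 11 without 5C-G A and 6 without 5C-G B in 5C-G against DMSO, and none lower. DNA replication genes moved less, with 1 of 28 higher and none lower and a median of 0.30. The call was Tyms, thymidylate synthase, from 1.62 and 1.06 to 2.28 and 2.88 FPKM (1.01 ± 0.28), just past the 2-fold limit. It was kept with the offset but not in DESeq2 or limma, and without 1 library 0, 0, 2 and 0 were higher and 0, 0, 3 and 0 lower. The cells in which these genes are transcribed cannot be told apart in bulk RNA.

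Promoters of mitotic genes are known for a cell cycle homology region (CHR, TTTGAA, or TTCAAA on the other strand) and for CCAAT boxes (CCAAT, or ATTGG on the other strand). Stretches before the start sites of 5 genes of the list are shown, and every stretch holds a match. Of these genes 4 rose, and Cdk1 was called with the offset. Birc5 and Nuf2 also rose, but their promoters held neither motif, and Cenpa, which rose too, is not shown either. Cdc20, Ube2c and Cdk1 hold both motifs in the stretch shown. Ccnb2 holds both in its whole promoter sequence, with the CHR outside the stretch. They come from RefSeq promoter sequences of 300 bases (GRCm38.p6), are printed 5′ to 3′ along the gene's strand, and have the matched motifs in capitals. The regions are chr4:118437344-118437413 (minus) for Cdc20, chr2:164769829-164769928 (plus) for Ube2c, chr10:69352913-69353012 (minus) for Cdk1, chr9:70421555-70421654 (minus) for Ccnb2 and chr13:100786487-100786596 (minus) for Ccnb1.
Cdc20: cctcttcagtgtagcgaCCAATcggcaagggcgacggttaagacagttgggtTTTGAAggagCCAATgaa
Ube2c: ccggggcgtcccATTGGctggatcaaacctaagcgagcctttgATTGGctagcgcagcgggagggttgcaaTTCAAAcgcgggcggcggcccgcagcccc
Cdk1: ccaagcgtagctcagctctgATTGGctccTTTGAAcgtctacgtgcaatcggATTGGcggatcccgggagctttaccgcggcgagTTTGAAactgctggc
Ccnb2: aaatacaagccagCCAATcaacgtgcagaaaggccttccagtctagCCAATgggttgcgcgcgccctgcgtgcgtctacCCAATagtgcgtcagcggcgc
Ccnb1: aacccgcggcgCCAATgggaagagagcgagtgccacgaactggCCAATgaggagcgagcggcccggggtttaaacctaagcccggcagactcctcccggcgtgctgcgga

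Of the 28 mitotic genes, 23 had a promoter in the table, and Ccna2, Aurkb, Kif20a, Tpx2 and Foxm1 had none. A CHR was found in 17 of the 23 (73.9%), on either strand within the 300 bases, and a CCAAT box in 18 (78.3%). Over all 13107 tested genes with a promoter the shares were 15.3% and 41.9%, and over all 32851 promoters in that table the shares were 17.9% and 37.4%. Of the 7 mitotic genes that rose and had a promoter, 4 held a CHR and 5 a CCAAT box. Cdc20 and Ube2c, with log2 fold changes of 2.09 and 1.82, hold both motifs, and Ccnb1, at 1.88, holds only CCAAT boxes in the stretch shown. A match is a description of the sequence, not evidence of a bound site.

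Part of the contractile genes and targets of SRF rose. Of 26 tested, 8 rose and none fell, with a median of 0.67, and 17 had a positive and 9 a negative log2 fold change. Acta2, smooth muscle actin and the usual marker of activated stellate cells (chr19:34217737-34232990, minus strand, GRCm39), rose from 255 and 299.9 FPKM in DMSO to 746 and 991 FPKM in 5C-G (1.72 ± 0.21, adjusted p = 0.00013). Cnn2, a calponin that binds actin, rose from 76.3 and 76.1 to 180.4 and 263 FPKM (1.62 ± 0.22). Des, the muscle intermediate filament desmin, rose from 30.9 and 33.5 to 67.3 and 105 FPKM (1.50 ± 0.23). In each of these 3 genes the 5C-G libraries are above both DMSO libraries, 5C-G B more so than 5C-G A, and the call was kept with the offset.

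The other contractile genes that rose lost their calls with the offset. Myl9, the myosin light chain that ROCK signalling phosphorylates, went from 54.0 and 56.8 to 130.4 and 187 FPKM (1.60 ± 0.21, and 0.84 with the offset), and the tropomyosin gene Tpm2 from 49.1 and 54.5 to 102 and 156 FPKM (1.40 ± 0.23, and 0.97). Tagln (1.72 ± 0.48), Csrp1 (1.25 ± 0.19) and Actg2 (1.38 ± 0.36) were the others. Tpm1 was called only with the offset (0.78, and 1.09 with it), which makes 4 of 26 higher there. Without 1 library the count was 5 to 9, against 8 with all 4, and 5 both without DMSO A and without 5C-G B. Stellate cell and fibroblast markers summed to 3581 and 3599 FPKM in DMSO and to 3804 and 4323 FPKM in 5C-G, and their part in this result was not tested. Myh11, the myosin heavy chain of mature smooth muscle, had 4.63 and 4.96 FPKM in DMSO and 3.88 and 3.74 FPKM in 5C-G (adjusted p = 0.65), and Srf itself had 13.3 and 13.2 against 20.7 and 19.0 FPKM, without passing the 2-fold limit.

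Against 5C, 13 of the 26 contractile genes were higher and none lower (10 and 0 with the offset), with a median of 0.95, and in 5C against DMSO 4 were lower and none higher. Acta2 had 233 and 215 FPKM in 5C. Des, at 15.5 and 15.4 FPKM in 5C, was below DMSO there and above it in 5C-G. Targets of YAP and TEAD, a separate branch of the response to cytoskeletal tension, gave no call among 20 genes in 5C-G against DMSO in edgeR's test, where 7 had an unadjusted p under 0.05, and none in DESeq2 or limma, while 1 was lower without 5C-G A. Ctgf had 273 and 298 FPKM in DMSO and 333 and 222 FPKM in 5C-G.

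SRF is known to bind the CArG box. Cnn2 and Myl9 are shown as the genes among those that rose whose promoters hold this motif, in capitals, at chr10:79988510-79988570 (plus) and chr2:156775274-156775344 (plus), again from RefSeq and GRCm38.p6.
Cnn2: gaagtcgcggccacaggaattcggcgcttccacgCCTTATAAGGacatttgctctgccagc
Myl9: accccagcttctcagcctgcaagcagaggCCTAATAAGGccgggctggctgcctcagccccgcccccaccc

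A promoter was given for 21 of the 26 contractile genes, and not for Actg2, Tagln, Myh11, Myocd and Actb. A CArG box lay in 6 of the 21 (28.6%), beside 1.62% of all tested genes with a promoter and 1.63% of all promoters of the table. Of the 6 contractile genes that rose and had a promoter, 2 held it. The 300 bases around the start of Acta2 and Des held no match, which says only that the letters are not in this window.

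Macrophage markers were called in 5C-G against DMSO at about the share of all genes (5.83%). Of 28 tested, 1 rose and 1 fell, with a median of -0.08, and 5C-G B had the highest summed level of the 4 libraries. With the offset 1 was higher and none lower, the median was -0.40, and 22 of the 28 had a negative log2 fold change. Without 5C-G A 5 were higher and 2 lower. Cd5l, a secreted protein of Kupffer cells, rose from 45.8 and 50.6 to 115 and 158 FPKM (1.58 ± 0.20, adjusted p = 0.0002) and kept its call with the offset. Cx3cr1, the fractalkine receptor, fell from 0.643 and 0.541 to 0.0966 and 0.0608 FPKM (-2.86 ± 0.89), and lost its call with the offset. C1qa, a subunit of complement C1q made by macrophages, had 825 and 772 FPKM in DMSO and 1160 and 1793 FPKM in 5C-G (0.97 ± 0.35, adjusted p = 0.074). Without 5C-G A it passed the test (1.32, adjusted p = 0.018). Cd68 had 363 and 362 against 327 and 639 FPKM, and Csf1r, the receptor on which macrophages depend, had 54.0 and 51.2 against 29.97 and 40.9 FPKM, neither called.

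In 5C the same markers were low. Their summed level was 757 and 844 FPKM there, 23 of the 28 were lower than in DMSO and none was higher, and 5C-G against 5C had 23 higher and none lower (23 and 0 with the offset), with a median of 2.68. Csf1r had 6.01 and 8.10 FPKM and C1qa 58.7 and 58.2 FPKM in 5C. The levels of macrophage markers therefore separate 5C-G from 5C but, for most of the list, were not shown to differ from DMSO. A call missed in 2 against 2 libraries does not show equal levels.

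**Figure D4:**
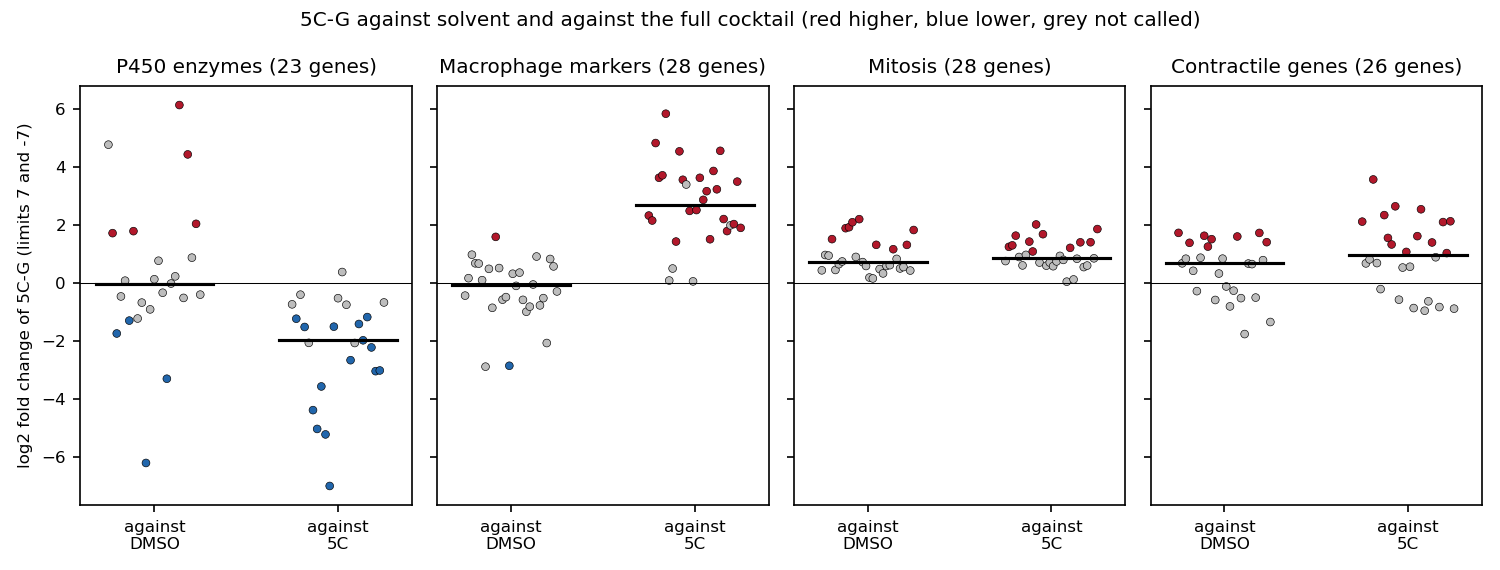
Each point is a gene, with its log2 fold change of 5C-G against DMSO (left of each panel) and against 5C (right), red where higher, blue where lower and grey where not called, and bars mark the medians. The P450 median is -0.03 against DMSO and -1.98 against 5C, and that of macrophage markers is -0.08 and 2.68, while the medians of mitotic genes (0.72 and 0.87) and contractile genes (0.67 and 0.95) are positive in both.

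Genes of functions that macrophages share with other cells gave 3 calls against DMSO, where 5.83% of all genes were called. Of 10 NADPH oxidase subunits 1 rose and 1 fell. Nox4, the constitutive oxidase of fibroblasts and hepatocytes, fell from 5.49 and 5.03 to 1.32 and 0.901 FPKM (-2.20 ± 0.26, adjusted p = 8.1e-05). Cyba, a membrane subunit shared by several oxidases, rose from 206 and 211 to 331 and 477 FPKM (1.04 ± 0.24) and lost its call with the offset. Of 29 cathepsins and lysosomal proteins 1 rose, Atp6v0d2, a proton pump subunit of macrophages and osteoclasts, from 1.68 and 1.29 to 3.54 and 3.24 FPKM (1.25 ± 0.33), with a median of 0.41. No gene of this list was called in limma or without DMSO A, DMSO B or 5C-G B, and 3 rose and 2 fell without 5C-G A. Lgals3, galectin 3, which is not in these lists and was picked after its values were seen, rose from 89.8 and 87.9 to 175 and 253 FPKM (1.35 ± 0.21) and lost its call with the offset (0.85).

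Among 11 genes of MHC class II presentation 1 fell, Cd74, the invariant chain, from 5.34 and 3.92 to 1.31 and 1.61 FPKM (-1.59 ± 0.31), while H2-Ab1 had 1.96 and 2.31 against 1.95 and 2.07 FPKM. Markers of lymphocytes, neutrophils and dendritic cells were near 0, and only 8 of the 18 listed passed the filter on low counts, none of them called in edgeR, DESeq2 or limma (1 lower without 5C-G A) and 1 with an unadjusted p under 0.05 in edgeR. Ms4a1, or CD20, had at most 0.0830 FPKM and S100a9 at most 0.119 FPKM in the 4 libraries.

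Interferon-stimulated genes rose in part. Of 27 tested 5 rose and none fell, with a median of 0.53. The count depended on single libraries, with 1, 1, 8 and 1 higher without 1 library. Irf7, the master regulator of type I interferon responses, rose from 5.36 and 4.92 to 13.1 and 22.4 FPKM (1.87 ± 0.29, adjusted p = 0.00097). Ifit1 rose from 1.50 and 2.13 to 3.58 and 5.01 FPKM (1.32 ± 0.34) and Xaf1 from 2.91 and 2.89 to 5.22 and 7.38 FPKM (1.20 ± 0.27). Irf7, Ifit1 and Xaf1 kept their calls with the offset. Isg15 had 18.9 FPKM in 5C-G A and 42.7 FPKM in 5C-G B, against 10.5 and 9.54 FPKM in DMSO (1.72 ± 0.41), and lost its call with the offset, as did Bst2. In all 4 of the named genes 5C-G B was the higher library.

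Chemokines and their receptors had 1 of 28 higher and 2 lower, beside 3.11% and 2.72% over all genes, with a median of -0.08. Without 1 library 0, 0, 2 and 0 were higher and 2, 2, 4 and 2 lower. Ccl8, a monocyte attractant made by macrophages, had 42.4 and 42.8 FPKM in DMSO and 80.4 and 111 FPKM in 5C-G (1.24 ± 0.35, lost with the offset), and 0.933 and 1.78 FPKM in 5C. Of 25 inflammatory cytokines and NF-kB feedback genes, Il33, the alarmin of epithelial and stromal cells, was the only call, from 5.09 and 5.85 to 1.68 and 1.19 FPKM (-1.88 ± 0.26, kept with the offset).

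Stromal marker genes went both ways. Of 22 markers of stellate cells and fibroblasts 3 rose and 1 fell, with a median of -0.07. Col15a1, a basement membrane collagen, rose from 1.28 and 1.25 to 6.81 and 6.51 FPKM (2.45 ± 0.22, adjusted p = 7.3e-06). Reln, the reelin of stellate cells, fell from 3.64 and 2.62 to 0.884 and 0.472 FPKM (-2.17 ± 0.25, adjusted p = 8.1e-05). Both kept their calls with the offset, while Hand2 and S100a6 lost theirs, and 1, 1, 3 and 2 were higher without 1 library. Of 21 collagen chains 1 fell, Col8a1, from 38.6 and 38.0 to 10.3 and 4.84 FPKM (-2.31 ± 0.24), with 1 higher and 2 lower under the offset and up to 3 lower without 1 library, and the fibrillar chain Col1a1 had 383 and 399.8 against 547 and 727 FPKM, which was not called.

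Matrix proteases, their inhibitors and crosslinking enzymes gave 3 higher and 3 lower of 31, beside 3.11% and 2.72% over all genes. With the offset 2 were higher and 2 lower. Without 1 library 2, 3, 3 and 2 were higher and 1, 3, 5 and 1 lower. Adamts2, which trims procollagen, rose from 16.7 and 17.7 to 39.0 and 33.5 FPKM (1.13 ± 0.15). Thbs1, thrombospondin 1, an activator of latent TGF beta, fell from 217 and 208 to 118 and 49.1 FPKM (-1.32 ± 0.27). The inhibitor Timp3 fell from 115 and 101 to 47.4 and 18.8 FPKM (-1.69 ± 0.34), while its relative Timp1 rose from 204 and 235 to 493 and 721 FPKM (1.54 ± 0.23). The 5C-G libraries differed by more than 2-fold in Thbs1 and Timp3, and Timp1 (0.89) and Fn1, fibronectin (-1.11 ± 0.14, and -0.80), lost their calls with the offset.

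Integrin and laminin subunits had 3 of 31 higher and 2 lower, 2 and 0 with the offset, and 0, 0, 2 and 1 higher and 0, 1, 5 and 0 lower without 1 library. Lama1, a laminin chain, rose from 0.963 and 0.954 to 2.31 and 2.36 FPKM (1.35 ± 0.27), and Itgb4, the integrin of hemidesmosomes, from 0.791 and 0.832 to 2.50 and 2.85 FPKM (1.79 ± 0.38), and these 2 calls were kept with the offset. Of 27 genes of the TGF beta pathway 1 fell, Skil, and lost its call with the offset, with a median of -0.32, and 0, 0, 4 and 0 were lower without 1 library.

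Endothelial markers went both ways, with 1 of 14 higher and 2 lower, and 1 lower without any 1 of the 4 libraries, in DESeq2 and in limma. Eng, endoglin, a TGF beta co-receptor also found on stellate cells, rose from 17.9 and 19.0 to 38.7 and 57.8 FPKM (1.47 ± 0.21), and Kdr, the main VEGF receptor, fell from 11.4 and 11.6 to 5.86 and 3.10 FPKM (-1.33 ± 0.23). Tek had 12 and 20 counts in DMSO and none in 5C-G, and was at least 5.32-fold lower, taken at the floor. Cholangiocyte and progenitor markers gave no call among 19 in edgeR, DESeq2 or limma, with 5 at an unadjusted p under 0.05 in edgeR and a median of 0.03. The absence of calls depended on the 5C-G libraries, with 5 lower without 5C-G A and 3 higher without 5C-G B. Krt19 had 68.0 and 70.5 FPKM in DMSO and 100.5 and 123 FPKM in 5C-G, and Epcam differed between the 5C-G libraries, at 6.10 FPKM in A and 0.249 FPKM in B, against 1.63 and 1.39 FPKM in DMSO. In 5C against DMSO 7 of the 19 were higher, and 5C-G against 5C had 11 lower and none higher.

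Of 22 epithelial keratins and junction genes 4 fell and none rose, with a median of -0.39. Dsp, the desmosomal plaque protein, fell from 5.14 and 4.69 to 1.89 and 0.969 FPKM (-1.75 ± 0.25), and Gjb2, the gap junction protein connexin 26, from 11.6 in both to 4.92 and 3.75 FPKM (-1.37 ± 0.23). Both were kept with the offset, while Ceacam1 and Tjp1 were lost, and 2, 2, 7 and 2 were lower without 1 library.

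Of 21 genes of fatty acid synthesis 3 fell and none rose (3 and 0 with the offset), with a median of -0.48. Scd1, the desaturase of newly made fatty acids, fell from 126 and 106 to 56.1 and 36.4 FPKM (-1.28 ± 0.22), and Lpin1, a phosphatidate phosphatase, from 16.5 and 14.3 to 5.31 and 4.22 FPKM (-1.64 ± 0.18). Of 25 cholesterol synthesis genes 3 rose, and of these only Mvk, mevalonate kinase, from 7.67 and 6.34 to 15.5 and 20.6 FPKM (1.44 ± 0.26), kept its call with the offset. Without 1 library 1, 0, 4 and 0 were higher. PPAR alpha targets and fatty acid oxidation genes had 1 of 30 higher, Fabp1, and 1 lower (1 and 0 with the offset), with a median of 0.15, and 0, 1, 2 and 0 lower without 1 library.

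Bile acid synthesis and hepatobiliary transport had 5 of 24 lower and 1 higher (6 and 1 with the offset), with a median of -0.56. Without 1 library 2, 3, 7 and 1 were lower. Slc10a1, the sodium-dependent bile acid importer, fell from 2.30 and 1.69 to 0.368 and 0.373 FPKM (-2.36 ± 0.55). Abcc2, the canalicular exporter of conjugates, fell from 8.52 and 8.40 to 3.40 and 2.54 FPKM (-1.46 ± 0.18), and Slco1b2, an organic anion importer, from 3.84 and 4.08 to 2.11 and 0.633 FPKM (-1.52 ± 0.38). Slco1a4, another organic anion importer, rose from 0.162 and 0.100 to 0.858 and 0.550 FPKM (2.45 ± 0.36). In 5C against DMSO 7 of the 24 were higher and 1 lower, and 5C-G against 5C had 12 lower and none higher.

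Of the other cocktails that lack 1 compound, 3 were used to see where the loss of the ROCK inhibitor differed from the loss of another component. The cocktail without Salidroside, with 1 library, was not compared. 5C-G was tested directly against 5C-C (without CID755673), 5C-E (without ETC-1002) and 5C-F (without forskolin), and 7.36% (4.14% higher, 3.21% lower), 9.31% (5.19% and 4.12%) and 8.03% (3.76% and 4.27%) of all genes were called. Macrophage markers were higher in 5C-G against each of the 3, at 21, 22 and 17 of 28 genes, and 1, 0 and 0 were lower. Contractile genes were higher at 15, 15 and 13 of 26, and 0, 1 and 0 were lower. Acta2 had a mean of 38.7 FPKM in 5C-C, 47.0 FPKM in 5C-E and 108 FPKM in 5C-F, and 5C-G was above them by 4.47, 4.43 and 3.06 on the log2 scale. Mitotic genes depended on the cocktail compared, with 0 higher and 4 lower against 5C-C, no call against 5C-E in edgeR's test, and 10 higher and 0 lower against 5C-F. P450 enzymes had 5 higher and 3 lower against 5C-C, 7 and 4 against 5C-E, and 0 and 16 against 5C-F. Hepatocyte transcription factors had 1 higher and 6 lower, 1 and 9, and 0 and 14. These 3 comparisons were not fitted with the offset, so trends with GC content and length in their counts were not corrected.

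**Figure D5:**
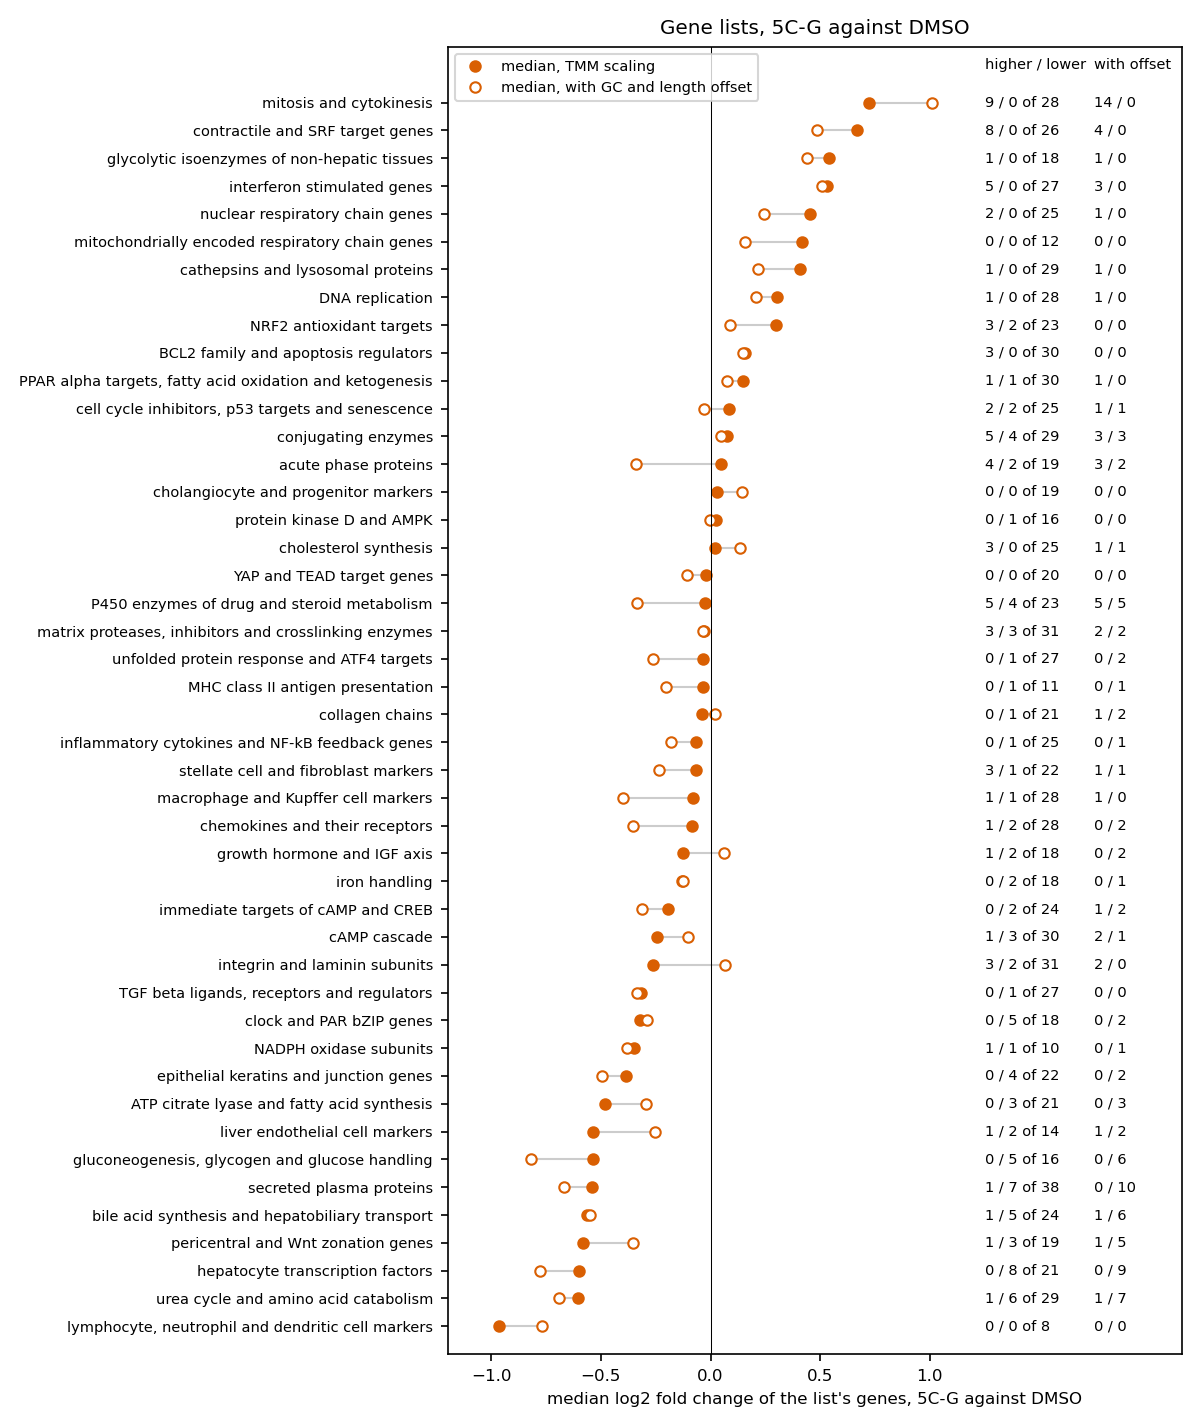
The median log2 fold change of 5C-G against DMSO is drawn for 45 gene lists with TMM scaling (filled) and with the GC and length offset (open), with the number of genes higher and lower of those tested at the right. Mitotic genes (9 of 28 higher) and contractile genes (8 of 26 higher) stand at the top, and hepatocyte transcription factors (8 of 21 lower) and amino acid enzymes (6 of 29 lower) near the bottom.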

How the data were processed

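Libraries were made from total RNA with a NEBNext Ultra kit that does not mark strand, so reads of overlapping and antisense genes cannot be told apart. The aligner is not given in the sources used here. The authors deposited raw counts per gene and FPKM (counts scaled to library total and gene length) for 13 libraries. The submitters' processing notes name featureCounts, Subread, DESeq2 and GRCm39. All columns were matched to a group by name (0 were not), since their running numbers could not be matched to single samples. Counts were tested with edgeR 4.0.16 (quasi-likelihood, TMM scaling, filterByExpr with a minimum count of 10) in 1 fit over all 13 libraries, in R 4.3.3, with Benjamini-Hochberg adjustment over all genes tested. A call needed an adjusted p under 0.05 and a 2-fold change. Deposited FPKM are printed as levels, and 1 gene had no FPKM. Fold changes and SE are log2 values from the counts. The offset used splines with 5 degrees of freedom in GC content and length. Named genes were the 12 leading genes in each direction and called or defining members of the lists. Leading genes had a mean of at least 1 FPKM, no overlap between the groups and a gene name. 6 listed genes were matched by older symbols. Some genes chosen by this rule are not reported here. The members and the lists were chosen with earlier results of these data known. The study's methods call replicates biological, but no label gives the culture or animal behind a library, so p-values measure only the spread between these samples. Alternatives were DESeq2 1.42.0, limma 3.58.1 (log2 of FPKM plus 1), other scalings and filters, the offset and leaving out each library. On simulated counts with the same libraries, 34% of genes changed 2-fold and 82% of those changed 3-fold were called, and 2 of 19684 unchanged genes. Whether these shares hold under the trends with GC content and length seen in 5C-G against DMSO was not tested.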

Additional observations from a re-analysis of the deposited data

Results flagged for a closer look

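Among 19884 genes tested, 5.83% were called in 5C-G against DMSO and 4.55% in 5C against DMSO. In 22 genes, leaving out gene models without a name, the fold change against DMSO was called in one direction with 5C-G and in the other with 5C. They were picked for these calls and for a called difference between 5C-G and 5C, which opposite 2-fold changes largely fix, so that difference is given as a description. In 11 of them the call of 5C-G against DMSO was kept with the GC and length offset, and 2 of the 11, Cyp2c54 and Igf2, were at or under 3 counts in each 5C-G library and are given no difference here. The 2 contrasts share the DMSO libraries. The log2 difference of 5C-G against 5C was -4.387 for Cyp2b10, -3.3856 for Ano1, a chloride channel gene, -3.1688 for Slco1b2 and -2.896 for Akr1d1, the 5-beta reductase of bile acid synthesis. It was -2.536 for Ttpa, the vitamin E transfer protein, -2.4857 for Ugt1a1 and -2.2111 for Spns2, a sphingosine-1-phosphate exporter. These 7 genes were below DMSO in 5C-G and above it in 5C. Cd5l and Des were above DMSO in 5C-G and below it in 5C, with 4.529 and 2.6351. Of the 11 genes whose call against DMSO was lost with the offset, 4 are described above, all above DMSO in 5C-G and below it in 5C. Their differences were 6.2886 for Ccl8, 3.5608 for Actg2, 2.4824 for Lgals3 and 2.3981 for Cyba. Ttpa had 8.81 and 7.97 FPKM in DMSO, 3.69 and 2.31 FPKM in 5C-G and 19.6 and 18.1 FPKM in 5C. Ano1 differed between the 5C-G libraries, at 0.472 and 0.0952 FPKM. With 2 libraries per group, no test for a single outlying library was made.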

How the results depend on the processing

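The count of 1160 calls (619 higher, 541 lower) became 372 (198 and 174) with limma on log2(FPKM + 1) and 653 (293 and 360) with the GC and length offset. With an adjusted p under 0.05 and no fold limit it was 2879 (1517 and 1362), and with an unadjusted p under 0.05 and the 2-fold limit 1697 (860 and 837). Leaving out 1 library gave 217 to 2722 calls, 80 to 1263 of them higher and 137 to 1459 lower. Calls numbered 1164 with DESeq2 size factors, 1259 with DESeq2's own test and 1027 with total-count scaling. Of 187 named genes, 35 lost and 13 gained a call with the offset. limma lost 61, leaving out DMSO A 68, DMSO B 57, 5C-G A 14 and 5C-G B 60. No named gene that was called changed sign. Of those not called, Cd68 had a log2 fold change of -0.13, Hp of -0.36 and Rock2 of 0.12 with the offset, against the opposite sign without it. Ctgf, near 0, had -0.020 with DESeq2 size factors and in DESeq2's test, -0.042 with total counts, -0.070 in limma, -0.044 with no filter, -0.019 with the strict filter, -0.0060 with the 4 libraries alone and -0.17 with the offset. Leaving out 1 library moved the log2 fold change across 0 in Cd68 (-0.18 to 0.97), Ctgf (-0.21 to 0.19), Foxa3 (-0.67 to 0.068) and Foxm1 (-0.29 to 0.56). The same held for H2-Ab1 (-0.18 to 0.10), Pck1 (-0.32 to 0.16) and Prkd1 (-0.12 to 0.42). Epcam had the widest such range, with -2.44 without 5C-G A and 1.98 without 5C-G B. List medians kept their sign in 39 of 46 lists with the offset. List counts under the offset and without each library were alternatives chosen after seeing the data. The cause of these shifts was not tested. No paired analysis was possible because the column numbers cannot be matched to the sample labels and pair nothing across groups. On the simulated counts, with 2 libraries per group, changes of 2-fold were often missed.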

Other observations

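Circadian genes had 5 of 18 lower and none higher, with a median log2 fold change of -0.32. Nr1d1 and Nr1d2, the REV-ERB repressors of the clock, fell from 7.95 and 7.76 to 2.65 and 3.74 FPKM (-1.22 ± 0.26) and from 6.88 and 7.38 to 3.20 and 1.87 FPKM (-1.45 ± 0.29), and these 2 calls were kept with the offset while Hlf, Per3 and Rora lost theirs. Without DMSO A, DMSO B, 5C-G A and 5C-G B in turn 2, 2, 4 and 2 were lower. Pericentral genes had 3 of 19 lower, Cyp2e1, Slc1a2 and Tbx3, and 1 higher, Cyp1a2. With the offset 5 were lower, with Gulo and Rgn added, and in the same order 1, 2, 8 and 1 were lower without 1 library. Of 18 genes of the growth hormone and IGF axis 2 fell and 1 rose (2 and 0 with the offset), and 1, 2, 2 and 0 were lower without 1 library. Igf2 rested on few counts, 49 and 6 in the DMSO libraries and 2 in each 5C-G library. Of 18 iron genes 2 fell, Cp and Hamp, and Cp lost its call with the offset, and 1, 1, 3 and 1 were lower without 1 library.

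Cell cycle inhibitors, p53 targets and senescence genes had 2 of 25 higher and 2 lower, and 1 and 1 with the offset. Without 1 library 0, 0, 2 and 0 were higher and 1, 1, 3 and 1 lower. Cdkn2c, the inhibitor p18, rose from 7.13 and 6.70 to 12.6 and 15.2 FPKM (1.08 ± 0.20), and Igfbp5 fell from 5.07 and 2.49 to 0.709 and 0.752 FPKM (-2.31 ± 0.29), both kept with the offset. Of 30 apoptosis regulators 3 rose (Bad, Bax and Bok) and of 23 NRF2 targets 3 rose and 2 fell, and all 8 of these calls were lost with the offset. Without 1 library 0, 0, 4 and 1 apoptosis regulators and 1, 1, 5 and 1 NRF2 targets were higher, and 0, 0, 2 and 0 and 1, 2, 2 and 0 lower. Of 27 genes of the unfolded protein response and ATF4, 1 fell, Ern1, which lost its call with the offset, where Ddit4 and Herpud1 were lower. Without 1 library 0, 0, 2 and 0 were higher and 0, 1, 1 and 0 lower. Nuclear genes of the respiratory chain had 2 of 25 higher, 1 with the offset and 0, 1, 6 and 0 without 1 library, and the 12 mitochondrially encoded genes tested had no call in edgeR, DESeq2 or limma, with 4 at an unadjusted p under 0.05 in edgeR and a median of 0.41 (1 higher without 5C-G A). Of 18 glycolytic isoenzymes of non-hepatic tissues 1 rose, Gapdh, at 3.35 and 2.20 against 5.02 and 9.22 FPKM, a gene with many processed copies whose count is uncertain. In limma none was called, and without 1 library 0, 0, 5 and 0 were higher.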
